A study of Mus musculus with 35 samples.

Results

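The cytosolic ribosomal protein genes are described here in the striatum of mice that carry an expanded CAG repeat in *Htt*, a deletion of *Hdac2* in medium-spiny neurons (MSNs), both or neither. A gene was a member if its symbol was *Rpl* or *Rps* followed by a number, with or without an added a, x, l or y, or one of *Rplp0*, *Rplp1*, *Rplp2* and *Rpsa*, and if it was not named as a pseudogene. This rule uses names and no measured value. It gave 80 of the 39017 genes counted, 49 of the large and 31 of the small ribosomal subunit. RNA-seq read counts were available for 35 mice aged 21.71 to 23 weeks, with 1 library per mouse. The *Htt*+/+ *Hdac2* WT group held 8 mice (5 males, 3 females) and the *Htt*Q111/+ *Hdac2* WT group 7 (4 males, 3 females). The *Htt*+/+ *Hdac2* KO group held 9 mice (5 males, 4 females) and the *Htt*Q111/+ *Hdac2* KO group 11 (8 males, 3 females). *Htt*Q111 is a knock-in allele, present in every cell, with 110 to 144 CAG repeats in these mice, and the *Htt*+/+ mice are recorded with 7. *Hdac2* KO mice carry floxed *Hdac2* and a Cre transgene driven by *Ppp1r1b* regulatory elements, so the deletion is limited to the cells in which that promoter is active, chiefly MSNs, and other striatal cells keep the gene. The *Hdac2* WT mice are labelled Cre-, and the study's sample sheet gives them floxed *Hdac2* on both alleles, or on one allele in *Htt*+/+ *Hdac2* WT replicates 1 and 2, so that effects of Cre and of the deletion cannot be told apart. The floxed line came from a mixed C57BL/6 and 129 background.

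Ribosomal proteins assemble with the ribosomal RNAs into a small subunit, which reads the messenger RNA, and a large subunit, which joins the amino acids. Each ribosome needs about equal amounts of nearly all of them. Their mRNAs share a run of pyrimidines at the very start, the terminal oligopyrimidine (TOP) motif, through which mTOR signalling controls their translation. Their mRNAs are abundant and short, and during evolution they have been copied back into the genome many times, which has left a large number of processed copies without introns. Most copies are annotated as pseudogenes. A read from a ribosomal protein mRNA may therefore match several places in the genome.

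The sequences of 4 members with one of their copies are shown first because the values below turn on them. Each line is a stretch of 75 bases of coding sequence, read from GENCODE M21 transcripts on GRCm38 and written 5′ to 3′, with capitals at bases that differ between the gene and its copy. The stretches of *Rps29* (chr12:69158686-69158760, minus strand) and of its copy *Gm14303* (chr2:172509555-172509629, minus strand) had no difference.
Rps29: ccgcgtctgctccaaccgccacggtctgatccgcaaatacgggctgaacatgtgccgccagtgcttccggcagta
Gm14303: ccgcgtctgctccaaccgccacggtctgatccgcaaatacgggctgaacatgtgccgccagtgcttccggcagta
Those of *Rps27* (chr3:90212970-90213044, minus strand) and *Gm9846* (chr9:114982518-114982592, minus strand) were also identical.
Rps27: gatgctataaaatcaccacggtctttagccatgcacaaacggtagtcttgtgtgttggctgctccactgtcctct
Gm9846: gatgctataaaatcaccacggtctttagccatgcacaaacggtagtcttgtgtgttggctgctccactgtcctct
*Rps18* (chr17:33952233-33952307, minus strand) and *Gm10260* (chr13:97760218-97760292, minus strand) differed at 2 bases of this stretch.
Rps18: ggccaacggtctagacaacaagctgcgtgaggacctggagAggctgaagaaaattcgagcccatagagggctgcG
Gm10260: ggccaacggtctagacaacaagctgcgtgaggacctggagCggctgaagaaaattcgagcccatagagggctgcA
*Rps2* (chr17:24720996-24721070, plus strand) and *Rps2-ps13* (chrX:52898990-52899064, plus strand) also differed at 2 bases.
Rps2: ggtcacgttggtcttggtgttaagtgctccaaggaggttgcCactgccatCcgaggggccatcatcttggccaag
Rps2-ps13: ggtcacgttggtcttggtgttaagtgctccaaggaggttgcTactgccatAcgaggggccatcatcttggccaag
Over the whole coding sequence, *Rps29* and *Gm14303* differed at 0 of 168 bases, *Rps27* and *Gm9846* at 0 of 252, *Rps18* and *Gm10260* at 4 of 456 and *Rps2* and *Rps2-ps13* at 7 of 879. Each copy has 1 exon. *Rps29* has 3 coding exons, *Rps27* 4, and *Rps18* and *Rps2* have 5.

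A pyrimidine run at the annotated start was found in a minority of the members matched, at a higher share than over all promoters. RefSeq promoters (GRCm38.p6, 250 bases before to 50 after each annotated start) were matched for 60 members with 72 promoters, among 32851 promoters of 27025 genes. A C at the annotated start followed by 4 pyrimidines, read on the gene's own strand, was found in 13 member promoters (18.1%) and in 2.51% of all promoters. A C followed by 7 pyrimidines anywhere from 20 bases before to 28 after the start was found in 44.4% of member promoters and 14.5% of all. The letters CCGGAAG on either strand, the core of the motif of ETS factors, were present in 36.1% of member promoters and 8.86% of all. TATAAA between 40 and 10 bases before the start was present in 0 of the member promoters and 2.08% of all. Median GC content was 57.8% against 52.7%. The starts of 4 members are shown, with 15 bases before and 25 from the start on, and with the pyrimidine run that begins at the start in capitals, because these genes recur below. They lie at chr17:33955641-33955680 (*Rps18*, minus strand), chr3:90213624-90213663 (*Rps27*, minus strand), chr7:118116123-118116162 (*Rps15a*, minus strand) and chr7:141447636-141447675 (*Rplp2*, plus strand).
Rps18: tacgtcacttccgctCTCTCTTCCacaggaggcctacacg
Rps27: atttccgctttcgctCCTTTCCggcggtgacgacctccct
Rps15a: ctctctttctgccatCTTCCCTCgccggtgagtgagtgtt
Rplp2: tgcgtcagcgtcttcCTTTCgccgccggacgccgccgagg

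Library totals were 50970712 to 77867348 counts, ERCC spike-ins made up 0.372% to 1.32% and mitochondrial genes 6.86% to 12.1% of counts. *Hdac2*, counted over the whole gene, differed by −0.09 (log2, adjusted p = 0.0552) with *Hdac2* KO in *Htt*+/+ mice and fell by 0.12 (adjusted p = 0.00198) in *Htt*Q111/+ mice (edgeR quasi-likelihood F test, Benjamini-Hochberg adjusted over all genes tested). The summed level of 12 MSN markers was 7366 to 12159 CPM, with group medians of 11467, 8072, 10546 and 9098 CPM in the order in which the groups were introduced above, used for all such lists of medians. The markers include *Ppp1r1b*, *Penk*, *Pde10a*, *Rgs9* and *Gpr6*, which the study lists among genes dysregulated by *Htt*Q111. In whole striatum, fewer cells of a type and less RNA per cell cannot be told apart from read counts. From cells counted in sections, the study reported no significant loss of MSNs with *Hdac2* KO. RNA extraction took place on 6 days, most of which held one *Hdac2* genotype alone. The letter that begins each mouse's ID (A, V or Z, called ID series here) cuts across the 4 groups, but unevenly. ID series Z held 1 of 8, 2 of 7, 5 of 9 and 3 of 11 libraries in the order of the groups. Among the *Htt*Q111/+ mice the ID series went with repeat length, at 131 to 144 CAG repeats in V and 110 to 118 in A and Z. In these mice, ID series V and a longer repeat cannot be told apart.

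The members together took 0.366% to 0.517% of the gene counts of a library, or 207716 to 309938 counts. Their summed level, in CPM (counts scaled to library size with TMM factors), ran from 3748 to 4379 with a median of 3996 in *Htt*+/+ *Hdac2* WT striata (n = 8). It ran from 3841 to 4501 with a median of 3989 in *Htt*Q111/+ *Hdac2* WT (n = 7), from 3967 to 4439 with a median of 4143 in *Htt*+/+ *Hdac2* KO (n = 9) and from 3969 to 4934 with a median of 4198 in *Htt*Q111/+ *Hdac2* KO (n = 11). The 4 ranges overlap widely, and the median of the double mutant group was 1.07 times that of *Htt*+/+ *Hdac2* WT. The 5 highest libraries were *Htt*Q111/+ *Hdac2* KO replicates 4 (4934), 7 (4625) and 5 (4415), *Htt*Q111/+ *Hdac2* WT replicate 1 (4501) and *Htt*+/+ *Hdac2* KO replicate 9 (4439). Replicates 4 and 7 of *Htt*Q111/+ *Hdac2* KO were the highest of their group in other housekeeping sets too. They had 10078 and 9826 CPM for nuclear genes of oxidative phosphorylation (group median 8903), 3032 and 2921 for proteasome genes (2739) and 2000 and 1901 for mitochondrial ribosomal protein genes (1771). Replicate 5 had 8977, 2650 and 1788 CPM for these sets. Their part in the members' level was not tested. Extraction days that held both *Hdac2* genotypes did not show one order. On 27 May the summed level was 4439 CPM in the single *Hdac2* KO library and 3748 to 4018 in 5 *Hdac2* WT libraries, whereas on 25 May it was 3969 in the single *Hdac2* KO library and 3913 to 4379 in 5 *Hdac2* WT libraries. Day and genotype cannot otherwise be told apart. Among the 6 libraries of 26 May, all *Hdac2* KO, the *Htt*+/+ animals had 3967 to 4143 CPM and the *Htt*Q111/+ animals 4022 to 4625. Within ID series V, the medians in *Htt*+/+ mice were 3988 CPM in *Hdac2* WT and 3984 in *Hdac2* KO. In *Htt*Q111/+ mice of V they were 3926 and 4415. In ID series Z, the single *Htt*+/+ *Hdac2* WT library had 4379 CPM, and the *Htt*+/+ *Hdac2* KO libraries had 4113 to 4439. The copies of the members, defined as genes with a Gm number or a name ending in -ps that share at least 75 identical bases with a member's transcript and do not overlap it, numbered 455. Their mean levels summed to 4030 CPM, next to 4148 CPM for the members. Summed per library, the copies reached group medians of 3945, 3880, 3994 and 4005 CPM in the order above, and their highest library, at 4795 CPM, was in *Htt*Q111/+ *Hdac2* KO as well.

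**Figure D1:**
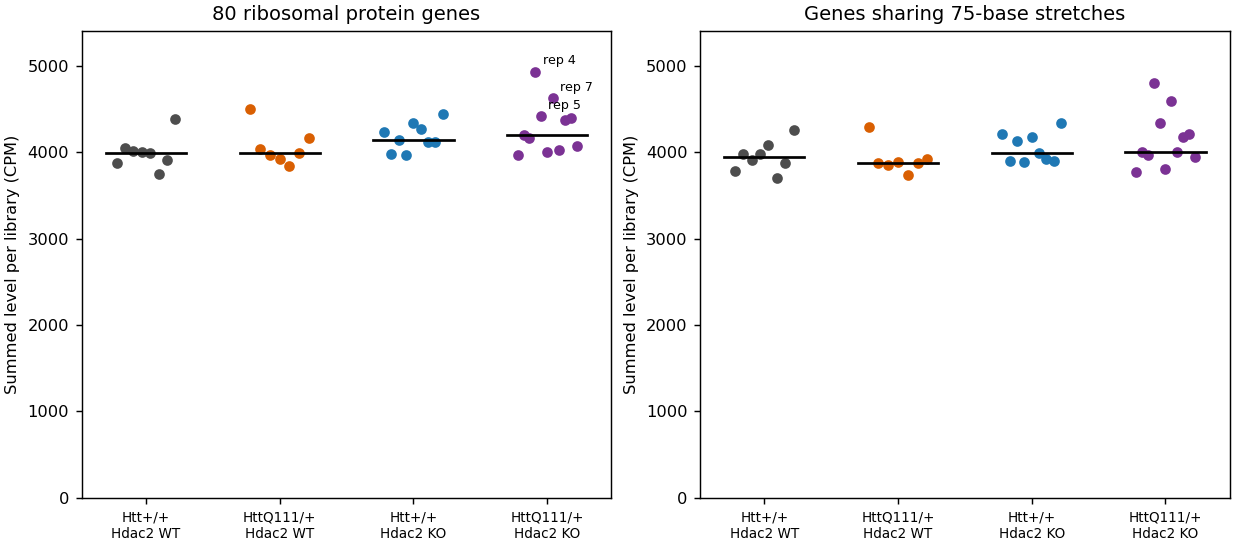
Summed level of the 80 ribosomal protein genes and of their 455 copies in each library (CPM, axis from 0), by genotype group, 1 point per library with the group median as a bar. The members lie between 3748 and 4934 CPM and the copies between 3705 and 4795 CPM, and the groups overlap in both panels.

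*Hdac2* KO was accompanied by few changes in single members although it changed a large part of the transcriptome. Of the 80 members, 78 passed the count filter and were tested in every comparison, and the other two were the testis paralogue *Rpl10l*, with 0 counts in every library, and *Rpl39l*, with 2.74 counts on average. In contrast 1 (*Htt*+/+ *Hdac2* KO against *Htt*+/+ *Hdac2* WT), 1 of the 78 members was called, *Rpl24*, which was lower. This is 1.28% of the members tested, next to 17.8% of all 17126 genes tested called in either direction and 8.79% called lower. In contrast 2, the same comparison in *Htt*Q111/+ mice, 1 of 78 was called, again *Rpl24* and again lower, where 16.5% of all genes tested were called and 8.86% called lower. The median log2 fold change of the members was −0.0065 in contrast 1 and 0.030 in contrast 2, next to −0.0014 and −0.0044 for all genes tested. The members' estimates were not less exact than those of other genes, with a median standard error of 0.0655 in contrast 1 and 0.0567 in contrast 2 (0.0689 and 0.0607 over all genes). Their size was smaller. The median absolute log2 fold change was 0.051 and 0.061 for the members and 0.095 and 0.082 for all genes, and 73 of the 78 members stayed within 0.2 of zero in each of the 2 contrasts.

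*Rpl24* encodes a protein of the large subunit near the interface of the subunits. It ran from 60.9 to 83.6 CPM with a median of 68.7 in *Htt*+/+ *Hdac2* WT and from 58.0 to 75.4 with a median of 64.5 in *Htt*Q111/+ *Hdac2* WT. It ran from 48.5 to 66.2 with a median of 55.9 in *Htt*+/+ *Hdac2* KO and from 50.8 to 66.7 with a median of 58.0 in *Htt*Q111/+ *Hdac2* KO. The *Hdac2* KO groups lay lower and overlapped the *Hdac2* WT groups. The log2 fold change was −0.18 (SE 0.0441, adjusted p = 0.00385) in contrast 1, −0.20 (SE 0.0391, adjusted p = 0.000579) in contrast 2 and −0.18 (SE 0.0328, adjusted p = 9.7e-05) as the average *Hdac2* KO effect (edgeR quasi-likelihood F test, Benjamini-Hochberg adjusted). It was below zero in every alternative run. Within ID series V, the *Hdac2* KO libraries had 49.8 to 51.7 CPM in *Htt*+/+ and 50.8 to 63.6 in *Htt*Q111/+ mice. The *Hdac2* WT libraries of V had 60.9 to 83.6 and 58.0 to 75.4. In ID series A, *Hdac2* KO libraries had 66.2 CPM in the single *Htt*+/+ mouse and 62.1 to 66.7 in *Htt*Q111/+ mice. Their *Hdac2* WT counterparts had 70.8 to 76.4 and 59.1 to 74.0 CPM. In ID series Z, *Hdac2* KO libraries had 48.5 to 60.2 and 50.9 to 58.0 CPM. The *Hdac2* WT libraries of Z had 66.6 CPM in the single *Htt*+/+ mouse and 64.5 to 67.0 in *Htt*Q111/+ mice. On 27 May the *Hdac2* KO library, at 48.5 CPM, lay under all 5 *Hdac2* WT libraries (58.0 to 83.6), but on 25 May the *Hdac2* KO library, at 66.7 CPM, lay within the 61.1 to 72.9 of the *Hdac2* WT libraries. With extraction day in place of the surrogate variables *Rpl24* was no longer called in contrasts 1 and 2, with log2 fold changes of −0.27 (SE 0.111) and −0.15 (SE 0.112). The annotated interval of *Rpl24* (chr16:55973883-56008913, GRCm38) overlaps *Pcnp* and *RP24-288C12.6*, neither of which was called in contrast 1 or 2. The estimates for *RP24-288C12.6* were −0.21 (SE 0.117) and −0.08 (SE 0.102). Those for *Pcnp* were 0.07 (SE 0.0488) and −0.03 (SE 0.0428). Whether reads of these genes enter the count of *Rpl24* was not tested. *Rpl24* was also a member that hardly varied with the others between libraries (r = 0.016 with the median of the rest).

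Averaged over both *Htt* backgrounds, 3 of 78 members were called for *Hdac2* KO (the average *Hdac2* KO effect), 2 higher and 1 lower, where 25% of 17346 genes were called, 12.9% higher and 12.1% lower. Besides *Rpl24* they were *Rps20* (log2 fold change 0.09, SE 0.0301, adjusted p = 0.0202) and *Rps4x* (0.07, SE 0.0244, adjusted p = 0.0354), which were higher, by the same edgeR test. *Rps4x*, the X-linked form of a small subunit protein, ran from 93.5 to 107 CPM (median 100) in *Htt*+/+ *Hdac2* WT, from 98.7 to 115 (103) in *Htt*Q111/+ *Hdac2* WT, from 98.3 to 117 (106) in *Htt*+/+ *Hdac2* KO and from 104 to 132 (111) in *Htt*Q111/+ *Hdac2* KO. *Rps20*, also of the small subunit, ran from 49.9 to 58.8 CPM (median 53.1), 51.8 to 61.8 (57.1), 57.7 to 68.2 (60.6) and 55.7 to 73.7 (61.4) in the same order. All of these group ranges overlap, apart from a narrow overlap of *Rps20* between both *Htt*+/+ groups. The number of calls depended on the covariates. Without surrogate variables 20 of 78 members were higher and 1 lower for the average effect, where 15.9% of all genes were higher, and with ID series in their place 16 were higher and 1 lower, where again 15.9% of all genes were higher. With extraction day in their place edgeR called 0 members and 4.62% of all genes. Without *Htt*Q111/+ *Hdac2* KO replicates 4, 5 and 7, which had the highest summed levels of that group, contrast 2 had 0 members higher and 3 lower, where 9.52% of all genes were lower. Leaving out the libraries highest in these same genes tends to lower the estimates by itself, so no conclusion on *Hdac2* KO is drawn from this count.

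The *Htt*Q111 allele in *Hdac2* WT mice (contrast 3, *Htt*Q111/+ over *Htt*+/+) was accompanied by 1 call among the 78 members, higher, where 0.403% of 17133 genes were called and 0.181% called higher. The gene was *Rps18*, with a log2 fold change of 0.41 (SE 0.0928, adjusted p = 0.0439, edgeR quasi-likelihood F test with Benjamini-Hochberg adjustment). In contrast 4, the same comparison in *Hdac2* KO mice, edgeR called 0 members, with 0.00584% of 17110 genes called. In that contrast 6 members had an unadjusted p under 0.05 (7.52% of all genes tested did), and DESeq2 called 1, *Rps18*. For the difference between these contrasts, the interaction of both genotypes, 0 members were called by edgeR and 0 by DESeq2, 3 had an unadjusted p under 0.05 in edgeR (5.63% of all genes did), and 0.00577% of all genes tested were called. The median log2 fold change of the members was −0.016 in contrast 3, 0.019 in contrast 4 and 0.019 for the interaction, next to 0.0019, −0.0011 and −0.0028 over all genes tested. For the average *Htt*Q111 effect 2 of 78 members were called, both higher, where 1.27% of 17346 genes were called and 0.432% called higher. They were *Rps18* (0.33, SE 0.0613, adjusted p = 0.00372) and *Rps2* (0.54, SE 0.132, adjusted p = 0.0320), by the same edgeR test.

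**Figure D2:**
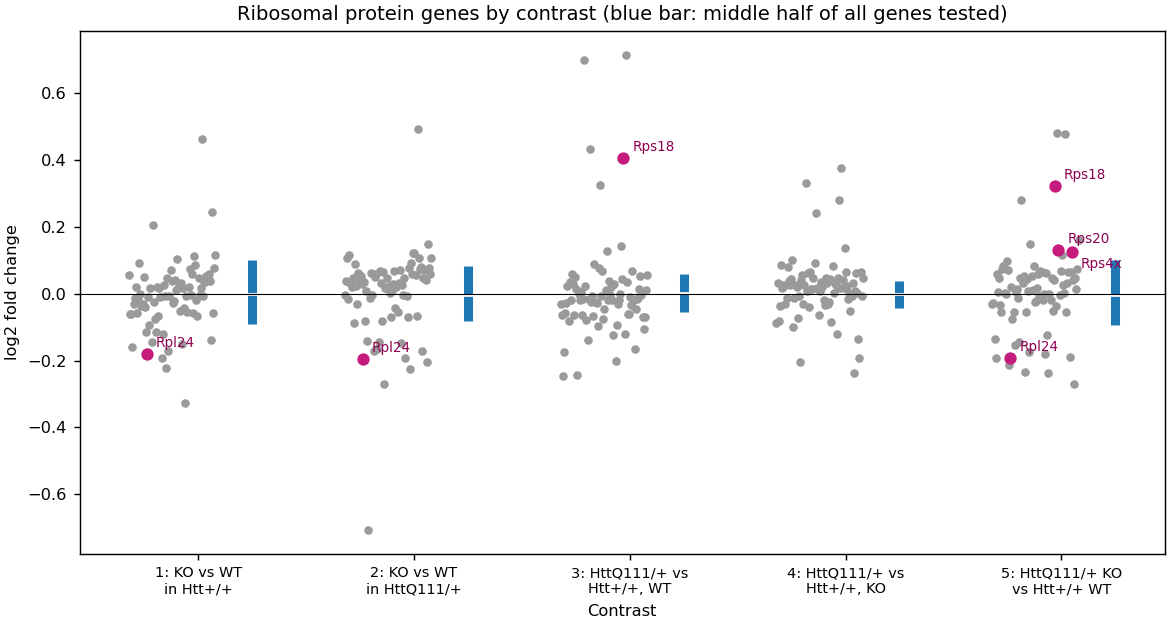
Log2 fold change of the 78 tested ribosomal protein genes in contrasts 1 to 5, 1 point per gene, with called genes in pink and named, and the middle 50% of all genes tested as a blue bar with the median in white. In each contrast 70 to 73 of the 78 points lie within 0.2 of zero, and *Rpl24* is the called gene below zero in contrasts 1, 2 and 5.

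The calls of *Rps18* and *Rps2* rested on libraries in which these genes sat on a separate, lower level. *Rps18* is a protein of the head of the small subunit. It ran from 15.04 to 29.7 CPM (median 27.0) in *Htt*+/+ *Hdac2* WT, from 26.0 to 31.0 (27.8) in *Htt*Q111/+ *Hdac2* WT, from 14.3 to 30.6 (27.9) in *Htt*+/+ *Hdac2* KO and from 26.7 to 31.6 (28.7) in *Htt*Q111/+ *Hdac2* KO. The medians were close, and 3 libraries, at 14.3 to 16.0 CPM, lay apart from the other 32, at 26.0 to 31.6. These 3 were the *Htt*+/+ libraries of ID series A (*Hdac2* WT replicates 1 and 2 and *Hdac2* KO replicate 1), and the *Htt*Q111/+ libraries of ID series A lay with the other 32. In the 3 libraries the copy *Gm10260*, whose sequence is given above, had 22.8 to 24.0 CPM, and in the other 32 it had 0.910 to 1.92 CPM. The copy was lower in contrast 3 by edgeR (log2 fold change −2.45, adjusted p = 0.00287). Without the libraries of ID series A, the log2 fold change of *Rps18* in contrast 3 was −0.037 (adjusted p = 0.628) and the average *Htt*Q111 effect 0.00078 (adjusted p = 0.991).

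*Rps2*, which lies near the entry of the mRNA channel, behaved alike in more libraries. In 15 libraries it had 14.9 to 19.4 CPM and its copy *Rps2-ps13* 51.1 to 66.0 CPM, and in the other 20 it had 27.0 to 39.1 CPM and the copy 0.839 to 2.22 CPM, with no library between. The low level was present in 6 of 8 *Htt*+/+ *Hdac2* WT, 2 of 7 *Htt*Q111/+ *Hdac2* WT, 4 of 9 *Htt*+/+ *Hdac2* KO and 3 of 11 *Htt*Q111/+ *Hdac2* KO libraries. By ID series it was present in 3 of 8 libraries of A, the same 3 that were low in *Rps18*, in 12 of 16 of V and in 0 of 11 of Z. The estimate for *Rps2* was 0.71 (SE 0.204, adjusted p = 0.131) in contrast 3. Without ID series A, the average *Htt*Q111 effect on *Rps2* was 0.11 (adjusted p = 0.588). *Rps2-ps13* was lower in contrast 3 (log2 fold change −4.36, adjusted p = 0.0106, edgeR). The sum of *Rps2* and *Rps2-ps13* was also not level, at 27.99 to 85.5 CPM over the 35 libraries, with a median of 70.2 in *Htt*+/+ *Hdac2* WT and 35.6, 40.4 and 37.3 in the other groups.

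Such steps were found in other members and in genes at large. Libraries were put in order of a gene's level, and the largest ratio between neighbouring libraries was taken. It was 1.3-fold or more in 6 of the 75 members with a mean of at least 1 CPM, and in 5.53% of the 14838 genes with that mean and with counts in every library. The 6 were *Rpl29* (21.1-fold), *Rpl34* (3.12-fold), *Rps18* (1.63-fold), *Rpsa* (1.55-fold), *Rps2* (1.39-fold) and *Rps12* (1.36-fold). *Rps12* was chosen after its values were seen. The 21.1-fold step of *Rpl29*, a large subunit protein, set 1 library at 1.21 CPM apart from the next at 25.5 CPM. Divided instead at 50 CPM, *Rpl29* had 1.21 to 35.3 CPM in 13 libraries and 52.7 to 69.6 in the other 22. All 13 were among the 16 libraries of ID series V, and they were spread over the genotypes (5 of 8, 1 of 7, 3 of 9 and 4 of 11 in the order used above). Its copy *Gm8210* had 2.49 to 5.39 CPM in the 13 and 0.0344 to 0.262 CPM in the 22. A second copy, *Gm10709*, went with the member, at 0 to 3.22 CPM in the 13 and 3.93 to 7.57 CPM in the 22. The lowest level of *Rpl29* itself was 1.21 CPM, in *Htt*Q111/+ *Hdac2* KO replicate 5. *Rpl34* had 2.16 and 2.19 CPM in *Htt*+/+ *Hdac2* KO replicates 4 and 2 and 6.83 to 16.3 CPM elsewhere. Its copy *Gm10154* was low in the same 2 libraries, at 0.0548 and 0.190 CPM against 1.42 to 6.79 CPM. *Rpsa*, the laminin receptor protein of the small subunit, had 56.1 and 55.3 CPM in 2 *Hdac2* WT libraries of ID series V, 1 of each *Htt* genotype, and 87.3 to 125 in the other 33. Its copy *Rpsa-ps10* had 185 to 207 CPM in those 2 and 99.0 to 132 in the others. Estimates for *Rpl29* were accordingly inexact, with −0.71 (SE 0.315, adjusted p = 0.132) in contrast 2 and 0.70 (SE 0.335, adjusted p = 0.449) in contrast 3, neither called by edgeR.

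**Figure D3:**
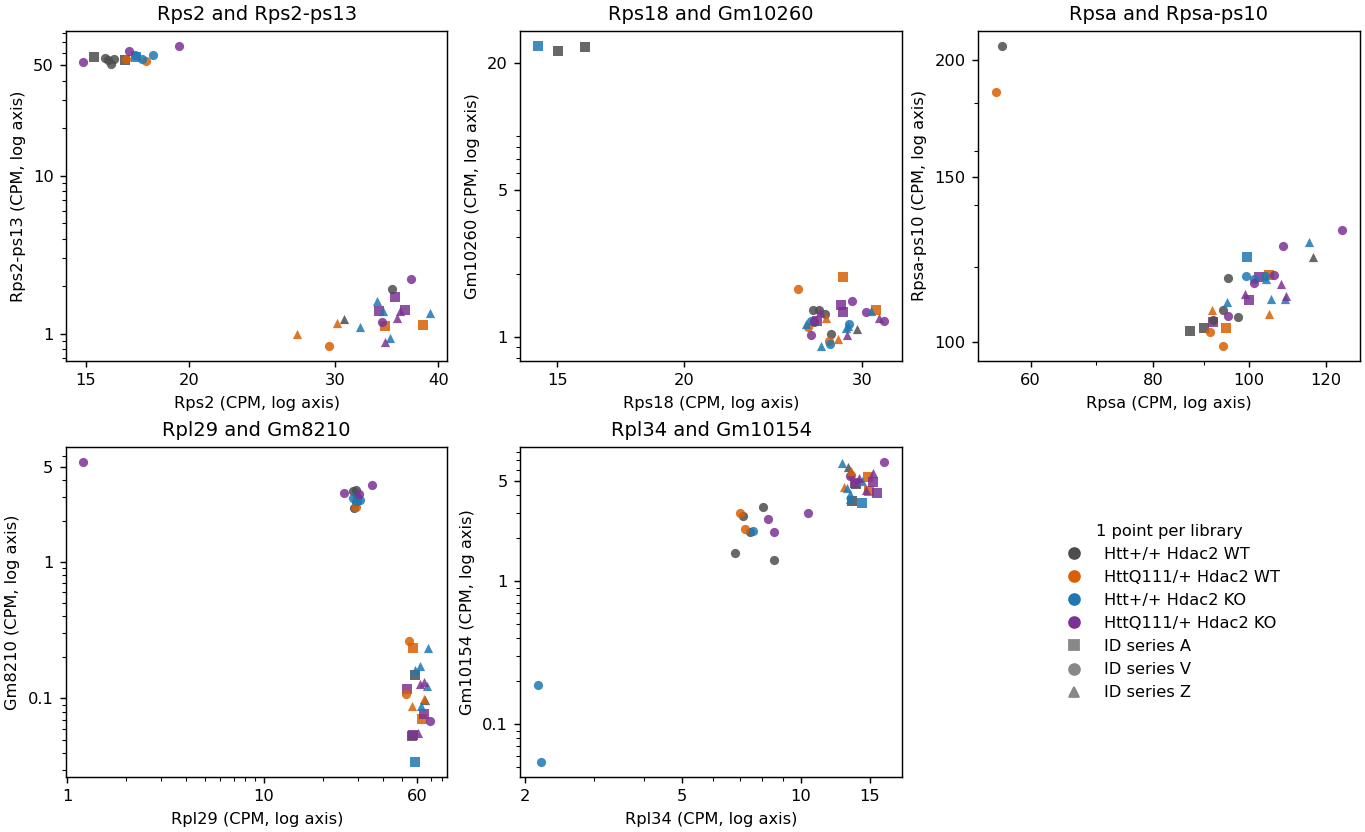
Level of 5 ribosomal protein genes against that of a copy in the same library (CPM, both axes logarithmic), coloured by genotype group and with a symbol for each ID series. *Rps2* splits into 15 libraries at 14.9 to 19.4 CPM and 20 at 27.0 to 39.1 CPM, and the copy *Rps2-ps13* is at 51.1 to 66.0 CPM in the first and 0.839 to 2.22 CPM in the second.

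Comparing mice with both mutations with mice wild type for both genes (contrast 5) gave 4 calls among the 78 members (5.13%), 3 higher and 1 lower, where 21.2% of 17088 genes were called, 10.2% higher and 11% lower. *Rpl24* was lower (log2 fold change −0.19, SE 0.0414, adjusted p = 0.000918). *Rps18* (0.32, SE 0.0943, adjusted p = 0.0131), *Rps20* (0.13, SE 0.0385, adjusted p = 0.0142) and *Rps4x* (0.12, SE 0.0313, adjusted p = 0.00410) were higher. The edgeR calls thus comprised 3 of 31 small subunit genes, all higher, and 1 of 47 large subunit genes tested, lower. The difference between the subunits was not tested. Without ID series A the log2 fold change of *Rps18* was −0.0063 (adjusted p = 0.931). *Rps2* did not pass (0.48, SE 0.202, adjusted p = 0.0922). The median over the members was 0.012 and over all genes −0.0027. The *Htt*+/+ *Hdac2* WT libraries serve as controls in contrasts 1, 3 and 5.

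The stalk proteins and the members with the highest counts had similar medians in the 4 groups and gave no call. *Rplp0*, *Rplp1* and *Rplp2* form the stalk that recruits elongation factors. *Rplp0* had group medians of 108, 105, 113 and 118 CPM, within 94.6 to 129 over all libraries. *Rplp1* had 167, 166, 173 and 171 CPM, within 148 to 220, and *Rplp2* had 29.8, 28.8, 31.0 and 30.4 CPM, within 25.9 to 35.8. None of the 3 was called by edgeR in any comparison. The largest of their estimates was that of *Rplp0* in contrast 2, 0.07 (SE 0.0282, adjusted p = 0.103). *Rpsa* had group medians of 93.0, 94.1, 104 and 103 CPM and was not called. The 3 members with the highest counts were *Rpl4* (medians 447, 456, 460 and 463 CPM), *Rps3* (249, 254, 268 and 271 CPM) and *Rpl8* (209, 206, 220 and 213 CPM). *Rps3* had a log2 estimate of 0.06 (SE 0.0301, adjusted p = 0.135) in contrast 5.

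Paralogues with restricted expression were low or absent. *Rpl3l*, the striated muscle form of *Rpl3*, had 0.172 to 0.873 CPM, and *Rpl3* had 38.4 to 54.5. *Rpl39l*, a testis form, had at most 16 counts in a library (0.277 CPM), and *Rpl39* had 18.6 to 25.5 CPM. *Rpl10l* had 0 counts in all 35 libraries, and *Rpl10* had 7.10 to 10.4 CPM. The values of *Rps27* and *Rps27l* went the other way, with 0.145 to 0.719 CPM (8 to 40 counts) for *Rps27* and 7.19 to 10.1 CPM for *Rps27l*. None of these was called in any comparison where it was tested.

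The low value of *Rps27* belongs to a wider pattern in which the level counted for a member went with how much of its transcript is found nowhere else. Of all stretches of 75 bases in the transcripts of a member, a median of 50.7% (1.48% to 100%) occurred in no other annotated gene. The same median was 99.6% for 74 mitochondrial ribosomal protein genes and 100% for 48 proteasome subunit genes. At least 1 stretch was shared with another gene in 76 of the 80 members, with a median of 5 genes. Only 12 members reached 90%. Levels were compared between genes per kilobase of transcript. Members under 25% (n = 18) had a median of 12.2 CPM per kb, those from 25% to 50% (n = 21) 29.4, those from 50% to 75% (n = 24) 48.0 and those at 75% or more (n = 17) 99.9. Spearman's rho across 79 members was 0.43, as a description across genes that share the same libraries. The highest levels were those of *Rplp1* (346 CPM per kb) and *Rps15* (324), the median over all members was 32.0, and *Rps27* had 1.04. Counts were of unique alignments.

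**Figure D4:**
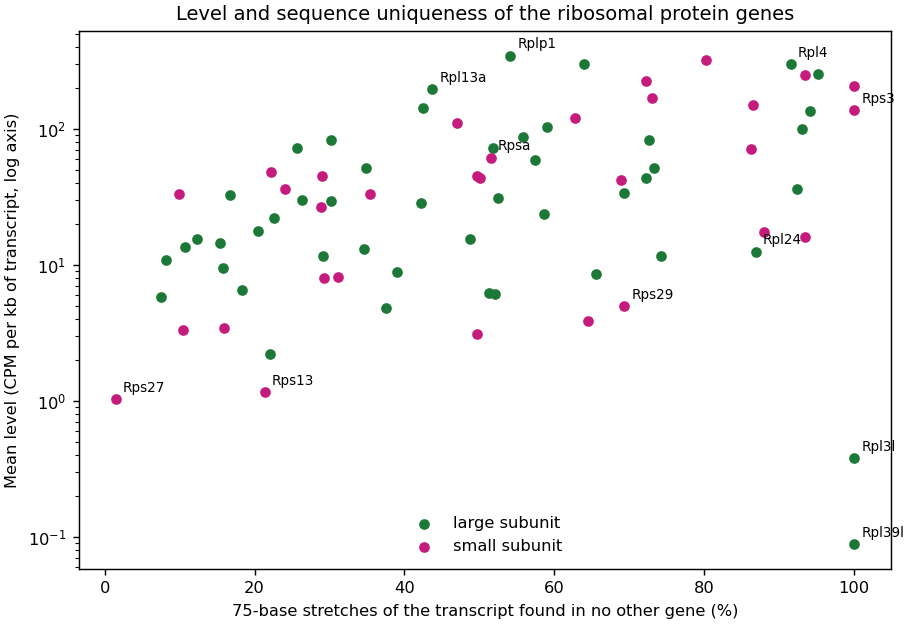
Mean level of each ribosomal protein gene over 35 libraries (CPM per kb of transcript, log axis) against the share of its 75-base stretches found in no other gene (%), with large subunit genes in green and small subunit genes in pink (*Rpl10l*, at 0, cannot be drawn on this axis). The median level rises from 12.2 CPM per kb under 25% to 99.9 at 75% or more.

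In 41 of the 80 members at least 1 copy had a higher mean level than the member. *Rps27* averaged 0.359 CPM and *Gm9846*, whose coding sequence is the same, 71.3 CPM (62.4 to 86.7 over libraries), which is 199-fold more. The 341 aligned bases of the 2 transcripts held 0 differences. *Rps29* averaged 1.94 CPM and *Gm14303* 225 CPM (202 to 274), 116-fold more. Further examples, chosen after their values were seen, were *Rps6* with 3.02 CPM against 92.7 for *Rps6-ps4*, *Rps16* with 4.30 against 97.2 for *Rps16-ps2*, *Rpl37* with 9.74 against 136 for *Gm13826* and *Rpl3* with 44.4 against 232 for *Rpl3-ps1*. *Gm13826* is annotated over chr5:115102923-115110268, and counts cover whole intervals, so reads from outside the shared stretches may be included. Which locus the reads came from cannot be told from counts. Of the copies that passed the count filter, 0 were higher and 3 lower of 167 in contrast 1, where 17.8% of all genes tested were called, and 2 were higher and 0 lower of 179 in contrast 2, where 16.5% were. In contrast 3 0 were higher and 2 lower of 177 (0.403% of all genes called), namely *Gm10260* and *Rps2-ps13*, and in contrast 5 4 were higher and 3 lower of 170 (21.2%).

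Between libraries of a group, the members had a larger median spread than other housekeeping complexes and tended to move together. The standard deviation of log2 CPM within groups had a median of 0.121 over 75 members (0.0664 to 1.03), next to 0.0943 for 75 mitochondrial ribosomal protein genes and 0.0761 for 46 proteasome genes. It was smallest for *Rps15a* (0.0664), *Rpl4* (0.0679) and *Rpl7* (0.0698) and largest for *Rpl29* (1.03), *Rpl34* (0.670) and *Rps2* (0.494). Counts differed widely between members, and the spread was not adjusted for them. In examples chosen after their values were seen, *Rps29* (mean 110 counts) had 0.263 and *Rpl23a* (207) 0.231, while *Rps3* (14978) had 0.0744. *Rpl29*, with the largest spread, had a mean of 2733 counts. *Rps15a* ran from 69.1 to 83.9 CPM over all 35 libraries. The median Pearson r between pairs of members, after group means were taken off, was 0.324, and 0.287 without *Htt*Q111/+ *Hdac2* KO replicates 4, 5 and 7. The same values were 0.211 and 0.114 for mitochondrial ribosomal protein genes, 0.223 and 0.124 for proteasome genes and 0.502 and 0.403 for nuclear genes of oxidative phosphorylation. These are descriptions, since all genes share the same libraries, and the differences were not tested. *Rps15* and *Rps14* were closest to the median of the other members (r = 0.925 and 0.900), and *Rpl15* (−0.023), *Rpl27a* (−0.016) and *Rpl24* (0.016) were the farthest. These 5, apart from *Rpl24*, were chosen after their values were seen.

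**Figure D5:**
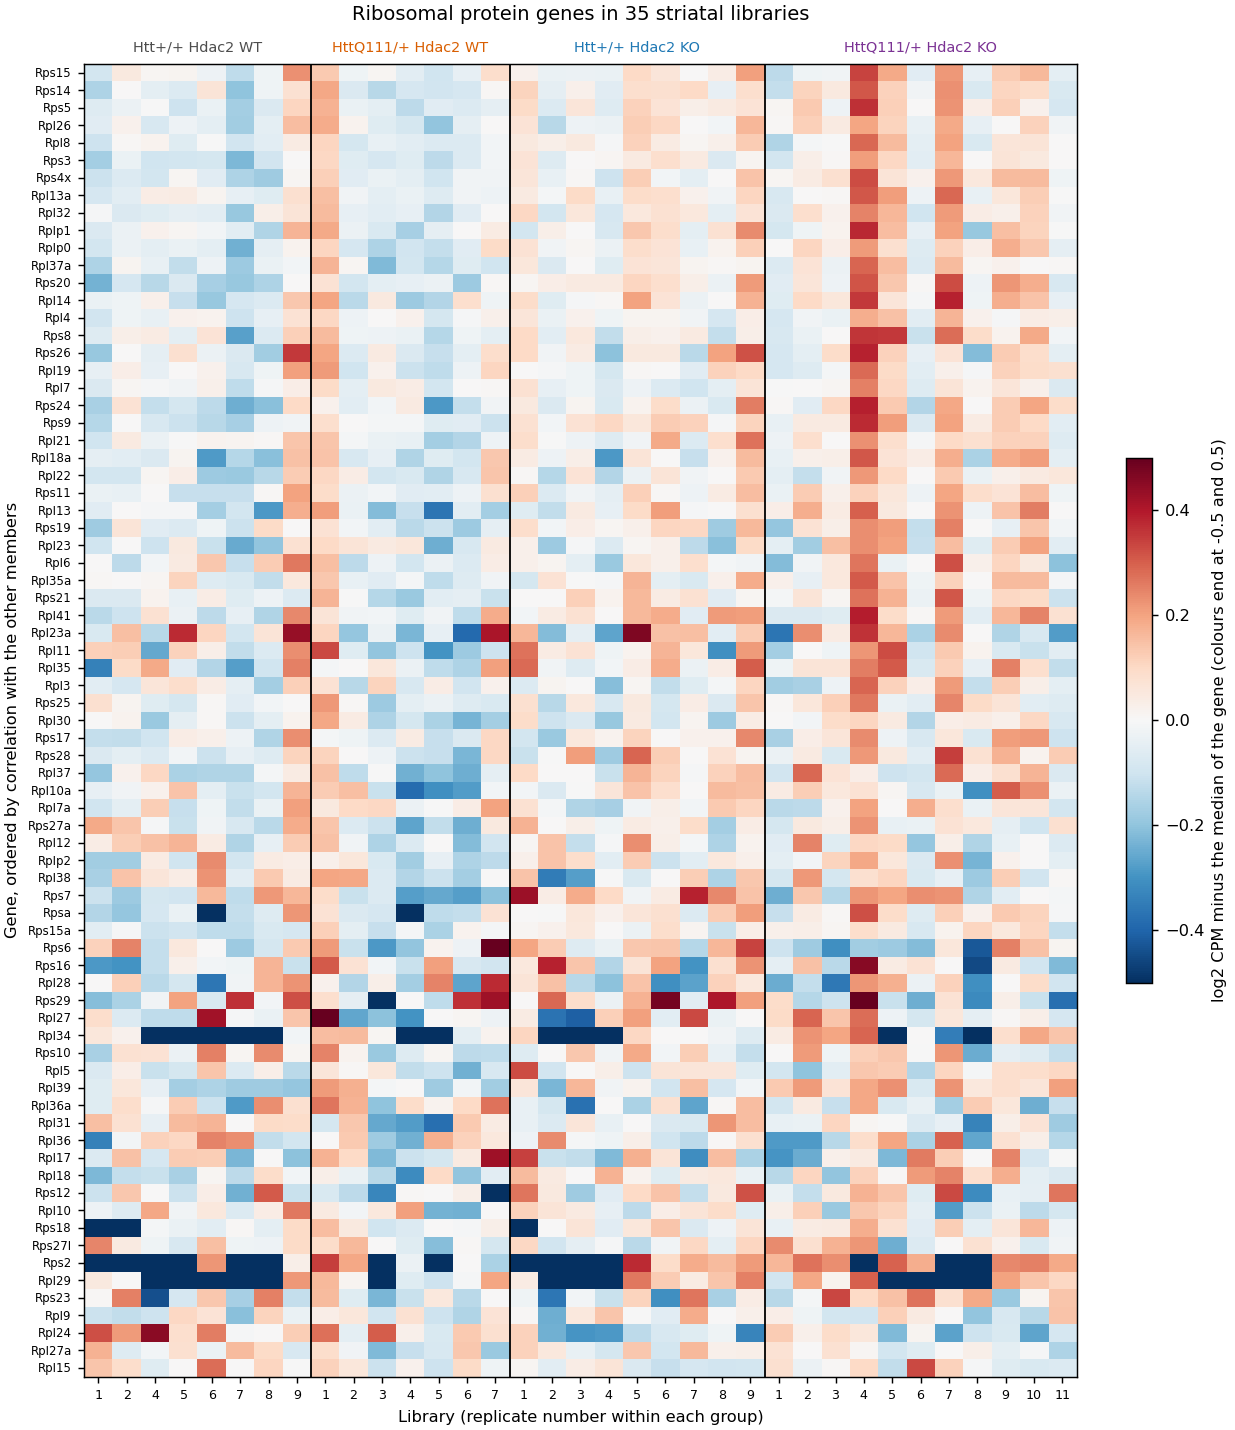
Level of each ribosomal protein gene with a mean of at least 1 CPM in the 35 libraries, as log2 CPM minus the median of the gene, with genes ordered by their correlation with the other members and libraries by group. *Htt*Q111/+ *Hdac2* KO replicates 4 and 7 stand out as high columns, and *Rpl29*, *Rpl34* and *Rps2* stand out as rows with a separate low level.

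Some ribosomal proteins are left out by the naming rule. *Fau*, *Rps3a1*, *Rpl22l1*, *Rpl7l1* and *Rpl36al* had no call in contrasts 1 to 4. *Rpl7l1*, a paralogue of *Rpl7*, was higher in contrast 5 (log2 fold change 0.13, SE 0.0356, adjusted p = 0.00807), where 21.2% of all genes tested were called, and for the average *Htt*Q111 effect (0.10, SE 0.0231, adjusted p = 0.0184), where 1.27% were. *Rpl36al* was higher for the average *Hdac2* KO effect (0.12, SE 0.0392, adjusted p = 0.0278), where 25% of all genes were called, all by edgeR. *Gnb2l1* (*Rack1*), a scaffold on the small subunit, had group medians of 182, 185, 186 and 196 CPM.

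Other genes of the translation machinery, from lists drawn up for this comparison, changed in part with *Hdac2* KO. Of 43 initiation factor genes tested, 5 were higher and 4 lower in contrast 1, and 5 and 3 in contrast 2, with 17.8% and 16.5% of all genes called. Of 12 elongation and termination factor genes, 1 was higher and 3 lower in contrast 1, and 0 and 3 in contrast 2. For the average *Hdac2* KO effect, *Eef1a2*, the neuronal and muscle form of the factor that delivers aminoacyl-tRNA, was lower (−0.15, SE 0.0240, adjusted p = 1.24e-05). *Eef2*, the translocation factor, was lower as well (−0.13, SE 0.0210, adjusted p = 2.74e-05). In the same comparison *Eefsec* (0.20, SE 0.0471, adjusted p = 0.00193) and *Eef1e1* (0.13, SE 0.0467, adjusted p = 0.0366) were higher, where 25% of all genes were called. Of 24 genes of mTOR signalling and TOP control, 2 were higher and 3 lower in contrast 1 and 2 and 4 in contrast 2. They included *Tsc1*, which restrains mTOR complex 1 (−0.16, SE 0.0305, adjusted p = 0.000229 in contrast 1, and −0.15, SE 0.0273, adjusted p = 0.000151 in contrast 2), and *Rheb*, which activates it (0.19, adjusted p = 0.0290, and 0.22, adjusted p = 0.00624). The largest fall in both was that of *Akt1s1* (−0.26, adjusted p = 0.0386, and −0.36, adjusted p = 0.000986). An entry of *Larp1b*, a gene listed more than once, had the largest rise (0.33, adjusted p = 0.00939, and 0.62, adjusted p = 0.0284). Activity of mTOR was not measured. Of 75 mitochondrial ribosomal protein genes 1 was higher and 10 lower in contrast 1, and 1 and 2 in contrast 2. *Mrps33* was lower in both (−0.28, adjusted p = 0.0135, and −0.31, adjusted p = 0.00194). Of 57 ribosome biogenesis genes, 1 was higher and 4 lower in contrast 1, and 1 and 7 in contrast 2. The other mRNAs known for a TOP motif had 0 higher and 2 lower of 19 in each of these contrasts. All calls are from the same edgeR fits, and the lists were not compared with each other by a test.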

How the data were processed

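Stranded mRNA libraries were prepared by the authors from striatal RNA. Reads were aligned to GRCm38 with GSNAP (2015-06-23), and the deposited values are raw counts of unique alignments over whole Ensembl gene intervals made with bedtools. Introns are included, mates are counted separately, and strand use in counting is not given in the sources used here. Of 39109 entries, 32863 remained after removal of ERCC spike-ins (92), mitochondrial rRNA (2) and genes of up to 250 nt (6152).

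Counts were TMM-scaled and fitted in edgeR 4.0.16 (R 4.3.3) with 4 groups and surrogate variables from sva 3.50.0. The quasi-likelihood F test was applied to genes for which all libraries of a compared group reached 6 counts, with Benjamini-Hochberg adjustment over all genes tested and calls at 0.05. CPM are TMM-scaled and without covariates. DESeq2 1.42.0, other scalings, filters, covariates and subsets of libraries served as alternatives. The procedure was tested on simulated counts. Replicates are separate mice.

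Named genes were the called members (up to 5 each way), restricted paralogues, stalk genes and *Rpsa*, and the 3 members with the highest and lowest level or spread. The members and lists were chosen with earlier results of these data known.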

Additional observations from a re-analysis of the deposited data

Results flagged for a closer look

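In 72 groups of 7 to 9 libraries examined for the named members, 8 had a library that passed the Dixon limit. The limit applies to the gap of a library to its nearest neighbour, relative to the range of its group. Chance passes it in about 1 of 20 groups. That rate does not hold here, since some named members were picked for their spread or calls in these data. *Rpl10l* and *Rpl39l*, also examined, had few counts or none. The *Htt*Q111/+ *Hdac2* KO group, with 11 libraries, was not examined. *Rps18* had 14.3 CPM in *Htt*+/+ *Hdac2* KO replicate 1 and 26.4 to 30.6 CPM in the rest of its group. *Rpsa* had 55.3 CPM in *Htt*Q111/+ *Hdac2* WT replicate 4 (the rest 91.4 to 105), and *Rpl29* had 29.1 CPM in replicate 3 of that group (the rest 52.7 to 64.9). These are libraries on the lower level described above. Replicate 1 of the same group was high in *Rpl8*, at 230 CPM (the rest 201 to 212), and in *Rps4x*, at 115 CPM (the rest 98.7 to 105). In replicate 7 *Rps27* had 0.719 CPM (the rest 0.246 to 0.399), and in replicate 4 *Rpl39l* had 0.105 CPM (the rest 0 to 0.0351). *Rplp0* had 94.6 CPM in *Htt*+/+ *Hdac2* WT replicate 7 (the rest 105 to 113), the library with the lowest summed level of the members.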

How the results depend on the processing

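The median log2 fold change of the members stayed between −0.016 and 0.086 over all comparisons other than contrast 3, where it ran from −0.039 to 0.024. Its moves were set against 0.0739, the standard deviation of the median member over libraries within groups. This is a spread of single libraries and does not measure the error of a difference between groups. Only in contrast 5 with the replicate block (0.086) was the move larger. The highest value was 0.065 in contrast 1, 0.079 in contrast 2 and 0.074 for the average *Hdac2* KO effect. With the replicate block in place of the surrogate variables, 5 members were called in contrast 1 (4 higher), 2 in contrast 2, 0 in contrast 3, 11 in contrast 5, 18 for the average *Hdac2* KO effect and 0 for the average *Htt*Q111 effect. Deviations of same-numbered libraries had a median r of 0.0855 (45 pairs, −0.417 to 0.539), next to −0.0256 for 410 differently numbered pairs. The numbers were not taken as pairs in the main fit. Without surrogate variables the counts were 5, 2, 0, 12, 21 and 0 in the same order. With ID series in their place they were 3, 4, 0, 13, 17 and 0, and with extraction day 0, 0, 0, 1, 0 and 0. With sex they were 5 in contrast 1, 0 in contrast 3, 11 in contrast 5, 20 for the average *Hdac2* KO effect and 0 for the average *Htt*Q111 effect. With only the compared groups, contrasts 1, 3 and 5 had 7, 0 and 15. In males, contrasts 2 and 5 had 0 and 2 and the average *Htt*Q111 effect 1. Scaling by total counts gave 3 in contrast 2 and 5 for the average *Hdac2* KO effect. DESeq2 gave 1 in contrast 4 and 5 for the average *Hdac2* KO effect. Without a count filter contrast 3 had 0. Alternatives on the libraries, chosen after seeing the data, gave 3 in contrast 2 without *Htt*Q111/+ *Hdac2* KO replicates 4, 5 and 7. Without ID series A there were 2, 3, 9 and 7 in contrasts 1, 2 and 5 and for the average *Hdac2* KO effect, and *Rps18* turned to −0.037 in contrast 3 and −0.0063 in contrast 5. The cause of the other shifts was not tested. Calls over all genes also differed between these settings. In contrast 1, the main fit called 1551 of 17126 genes higher and 1505 lower. Without surrogate variables these were 1911 and 2093, with the replicate block 2108 and 2243, and with extraction day 494 and 328. In contrast 5, the main fit called 1747 of 17088 genes higher and 1880 lower. With only the compared groups, these were 2599 and 3020. *Rpl24* was called in 14 of 15 alternatives in contrast 1, 11 of 17 in contrast 2, 15 of 17 in contrast 5 and 15 of 16 for the average *Hdac2* KO effect. *Rps18* in contrast 3 was called in 7 of 15, *Rps2* for the average *Htt*Q111 effect in 9 of 16. Members such as *Rps27* (8 to 40 counts per library) are too low for small changes to be detected.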

Other observations

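Nuclear genes of oxidative phosphorylation, listed beside the ribosomal protein genes as another set of abundant housekeeping mRNAs, had more calls and mostly in one direction. Of 82 tested, 2 were higher and 19 lower in contrast 1 (17.8% of all genes tested were called), and 2 of 81 were higher and 16 lower in contrast 2 (16.5%). *Ndufs7*, a subunit of complex I, was lower in both (−0.18, adjusted p = 0.00365, and −0.20, adjusted p = 0.000531, edgeR quasi-likelihood F test with Benjamini-Hochberg adjustment), and *Ndufv3*, another subunit of complex I, was higher in both (0.16, adjusted p = 0.00101, and 0.15, adjusted p = 0.000460). Proteasome genes had 2 higher and 3 lower of 47 in contrast 1 and 2 higher and 0 lower in contrast 2. The immunoproteasome subunit *Psmb10* was higher in both (0.45, adjusted p = 0.000245, and 0.43, adjusted p = 0.000116), as was the activator subunit *Psme1* (0.39, adjusted p = 0.000209, and 0.23, adjusted p = 0.0113). *Rps3a1*, a ribosomal protein gene outside the naming rule and singled out after its values were seen, had 25.9 CPM in 1 *Htt*+/+ *Hdac2* WT library and 28.8 CPM in 1 *Htt*Q111/+ *Hdac2* KO library, and 43.3 to 62.8 CPM in the others.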
